A study of Homo sapiens with 10 samples.

Results

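Genes that mark neuroendocrine and neural lineages were followed in VCaP cells (a line of human prostate cancer) after knockdown of *SMARCA4* or *SMARCA1*. The set held 7 of the 59386 genes counted, and was chosen by gene symbol: the granin genes *CHGA*, *CHGB* and *SCG2*, the synaptic vesicle gene *SYP*, the enolase gene *ENO2*, the transcription factor gene *INSM1* and the adhesion gene *NCAM1*. All 7 were present in every library and all 7 were among the 16899 genes that passed the filter on low counts and were tested. All 7 were expressed in control cells, at 1 CPM (the count of a gene scaled by its library's total) or more in both control libraries. After knockdown they did not move as a block: *SCG2* and *CHGA* rose in both knockdowns, *INSM1* and *NCAM1* fell in both, *CHGB* rose in *SMARCA4* knockdown, and *SYP* rose and *ENO2* fell in *SMARCA1* knockdown. Of the genes that moved in both knockdowns, only *SCG2* was called with every siRNA.

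Neuroendocrine cells store peptide hormones in dense-core vesicles, which are packed with granins, and they share with neurons a machinery of small synaptic vesicles. *INSM1* encodes a zinc finger factor of neuroendocrine differentiation, and REST, a repressor of neural genes, holds many genes of this program silent in other cells. In prostate cancer, several of these markers are used in pathology to recognize neuroendocrine differentiation, which can appear after treatment directed at the androgen receptor.

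The experiment asked how the transcriptome responds to loss of 2 ATPases that remodel nucleosomes: SMARCA4 (BRG1), a catalytic subunit of SWI/SNF complexes, and SMARCA1 (SNF2L), a member of the ISWI family. Cells received 30 pmol of siRNA A or siRNA B against *SMARCA4*, or of siRNA A or siRNA C against *SMARCA1*, and RNA was taken 72 h later. Control cells are labelled wild type, and neither the siRNA nor the dose they received is given in the sources used here. Each of the 5 conditions had 2 libraries, 10 in all, and since nothing says that these came from separate cultures, p-values measure only the spread between these libraries, which may be technical. Every group is a bulk sample of this 1 cell line. In bulk RNA, fewer cells of a type and less RNA per cell cannot be told apart.

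Libraries held 23898545 to 34667965 counts, so 3 counts, the most that a count of 0 allows, corresponded to 0.0865 to 0.126 CPM (counting error only). *SMARCA4* lay at 242 and 268 CPM in the controls and at 13.3 to 25.2 CPM in the 4 *SMARCA4* knockdown libraries. *SMARCA1* lay at 32.3 and 31.5 CPM in the controls and at 1.75 to 3.40 CPM in the 4 *SMARCA1* knockdown libraries, and at 57.4 to 83.8 CPM in *SMARCA4* knockdown. The summed level of 29 interferon response genes was 364 to 372 CPM in the controls, 16222 to 44582 CPM in *SMARCA4* knockdown and 23744 to 46507 CPM in *SMARCA1* knockdown, with 29 of 29 genes higher in each. It moved together with every comparison against control below, and its part in those results was not tested. Prostate luminal markers (14 genes) summed to between 10932 and 14810 CPM in every library. Of the markers of other cell types, *S100B* had 0 counts in all libraries and *PTPRC*, *CD3E*, *CDH5*, *CD68* and *GFAP* had at most 2 counts in any, whereas the myelin gene *MBP* lay at 69.6 to 111 CPM and did not pass in either knockdown. The lysozyme gene *LYZ* went from 19 and 14 counts in the controls to between 48 and 713 in the knockdown libraries (log2 3.26 and 4.63 in *SMARCA4* and *SMARCA1* knockdown, both called), the collagen gene *COL1A1* rose in both (log2 0.74 and 1.21) and the matrix gene *LUM* in *SMARCA1* knockdown (log2 0.92), whereas *COL1A2* and *COL3A1* fell in *SMARCA1* knockdown, to at most 3 counts in a library. These markers (16 genes, 10 tested) summed to 117 and 119 CPM in the controls, 129 to 155 CPM in *SMARCA4* knockdown and 126 to 184 CPM in *SMARCA1* knockdown. Of the 10 tested, 2 were called higher and 0 lower in *SMARCA4* knockdown, beside 22.8% and 22.3% of all tested genes. In *SMARCA1* knockdown 4 were higher and 2 lower, beside 23.8% and 23.0%. The part of these markers in the results was not tested.

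The levels of the 7 genes in control cells spanned a wide range. Per kilobase of exon, as TPM (counts divided by exon length and scaled to the library), *SYP* (36.3 and 37.0 TPM) and *CHGB* (33.8 and 37.1 TPM) were highest, and their values overlapped. They were followed by *INSM1* (28.9 and 25.3 TPM), *CHGA* (19.0 and 21.2 TPM) and *ENO2* (8.53 and 8.62 TPM), each apart from its neighbours in both libraries. *SCG2* (1.91 and 1.90 TPM) and *NCAM1* (0.860 and 0.936 TPM) were lowest. The median tested gene had 12.8 TPM in control cells, so *SYP*, *CHGB*, *INSM1* and *CHGA* were above it and *ENO2*, *SCG2* and *NCAM1* below it. Among the 16899 tested genes ranked by control TPM, *SYP* was at 4832 and *NCAM1* at 14506. *SCG2* rested on 27 and 30 counts in the controls and *NCAM1* on 60 and 73, against 1021 and 1167 for *SYP*. At a stricter limit of 2 CPM, 6 of the 7 remained expressed, *SCG2* being the exception.

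**Figure D1:**
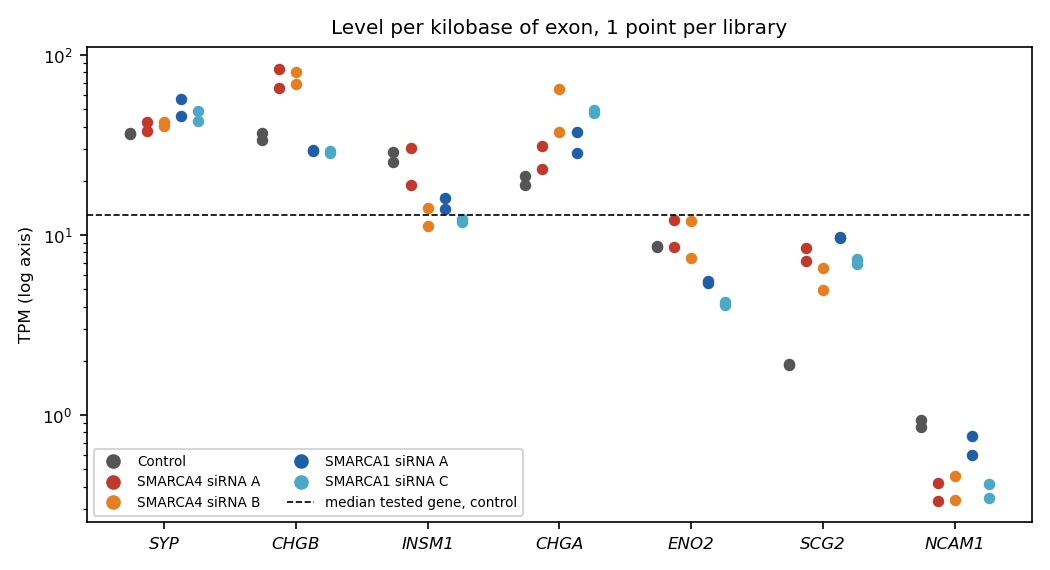
Level of each marker per kilobase of exon (TPM, log axis) with 1 point per library, genes ordered by their control level; the dashed line is the median tested gene in control cells, at 12.8 TPM. *SYP* and *CHGB* start near 36 TPM and *NCAM1* lies below 1 TPM in all libraries.

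The genes are on separate chromosomes except for *CHGB* and *INSM1*, in GRCh38: *CHGA* on chromosome 14 (chr14:92923150-92935285, forward strand), *CHGB* on chromosome 20 (chr20:5911510-5925353, forward), *SCG2* on chromosome 2 (chr2:223596940-223602361, reverse), *SYP* on chromosome X (chrX:49187815-49200199, reverse), *ENO2* on chromosome 12 (chr12:6913745-6923698, forward), *INSM1* on chromosome 20 (chr20:20368104-20370949, forward) and *NCAM1* on chromosome 11 (chr11:112961247-113278436, forward). The counted exons covered from 2577 bases for *SCG2* to 12737 bases for *NCAM1*. Antisense genes covered small parts of the exons of *SYP* and *NCAM1*, at most 613 bases (4.81%) for *NCAM1-AS1*, and the antisense genes had 0 to 13 counts in a library.

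The promoter of *CHGA* is shown because *CHGA* rose in both knockdowns and its promoter holds a cyclic AMP response element (CRE), the motif bound by CREB family factors. The window runs from 250 bases before to 50 bases after the RefSeq start site (GRCh38.p14, chr14:92922900-92923199, forward strand). Capitals mark the CRE TGACGTCA and the TATA-like TATATAA.

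CHGA promoter: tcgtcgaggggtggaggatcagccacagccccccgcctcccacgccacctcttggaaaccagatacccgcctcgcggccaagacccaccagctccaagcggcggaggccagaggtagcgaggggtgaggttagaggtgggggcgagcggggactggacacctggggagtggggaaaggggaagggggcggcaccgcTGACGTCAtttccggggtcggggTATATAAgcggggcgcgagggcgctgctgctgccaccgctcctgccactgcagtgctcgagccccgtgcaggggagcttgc

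The CRE began 54 bases before the start site and TATATAA 31 bases before it. On both strands, TGACGTCA was found in 1.85% of 35116 promoters of the same length and TATATAA in 2.57%. RefSeq windows were matched for 3 of the 7 markers, *CHGA*, *SYP* and *ENO2*, and *CHGB*, *SCG2*, *INSM1* and *NCAM1* were not matched. The windows of *SYP* (71.3% G or C) and *ENO2* (75.0%) held none of the letters searched, which also included CAGCTG (an E-box, in 17.9% of promoters), TATAAA (11.5%), TGACG (the CRE half-site, overlapping TGACGTCA, 24.6%), and TTCAGCACC (0.376%) and GGACAGCG (1.63%), parts of the element bound by REST. These matches describe letters only.

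The granins are acidic proteins of dense-core vesicles, and their 3 genes are described in turn. *CHGA*, which encodes chromogranin A, the granin measured in blood as a tumor marker, was at 13.2 and 14.6 CPM in the controls, 21.7 and 15.7 CPM with *SMARCA4* siRNA A, 45.0 and 24.6 CPM with siRNA B, 28.0 and 19.5 CPM with *SMARCA1* siRNA A and 35.3 and 36.6 CPM with siRNA C. All 8 knockdown libraries exceeded both controls, although the spread inside *SMARCA4* knockdown was wide and the second siRNA A library lay just above the higher control. In *SMARCA4* knockdown the log2 fold change was 0.88 ± 0.25 (SE; edgeR's quasi-likelihood test, adjusted p = 0.0158). In *SMARCA1* knockdown it was 1.07 ± 0.25 (adjusted p = 0.00596, edgeR). By edgeR's test the rise of *CHGA* in *SMARCA4* knockdown lost its call without control replicate 1 (adjusted p = 0.103) or control replicate 2 (0.0655), and that in *SMARCA1* knockdown without control replicate 1 (0.0574).

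*CHGB*, which encodes chromogranin B, rose in *SMARCA4* knockdown. The controls had 34.5 and 37.5 CPM, against 67.2 and 82.9 CPM with *SMARCA4* siRNA A and 71.1 and 78.0 CPM with siRNA B. All 4 *SMARCA4* knockdown libraries stood well above both controls and the 2 siRNAs overlapped. The *SMARCA1* libraries were at 32.7 and 29.3 CPM with siRNA A and 32.3 and 31.0 CPM with siRNA C, all 4 a little below both controls. The log2 fold change was 1.06 ± 0.12 in *SMARCA4* knockdown, or 2.08-fold (edgeR's quasi-likelihood test, adjusted p = 9.31e-05). In *SMARCA1* knockdown it was −0.20 ± 0.11 (adjusted p = 0.169, edgeR), with a 95% interval from −0.45 to 0.050.

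*SCG2*, which encodes secretogranin II, the precursor of the peptide secretoneurin, had the largest rise among the 7 in both knockdowns. From 1.13 and 1.11 CPM in the controls it reached 4.23 and 4.87 CPM with *SMARCA4* siRNA A, 3.89 and 2.77 CPM with siRNA B, 6.18 and 5.61 CPM with *SMARCA1* siRNA A and 4.38 and 4.68 CPM with siRNA C. Every knockdown library was above both controls, and *SMARCA1* siRNA A stood above all other conditions. The rise was 3.47-fold in *SMARCA4* knockdown (log2 1.79 ± 0.21, adjusted p = 0.000125, edgeR) and 4.59-fold in *SMARCA1* knockdown (log2 2.20 ± 0.21, adjusted p = 6.13e-05, edgeR). The knockdown libraries held 79 to 171 counts of *SCG2*, which limits the precision of these folds.

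**Figure D2:**
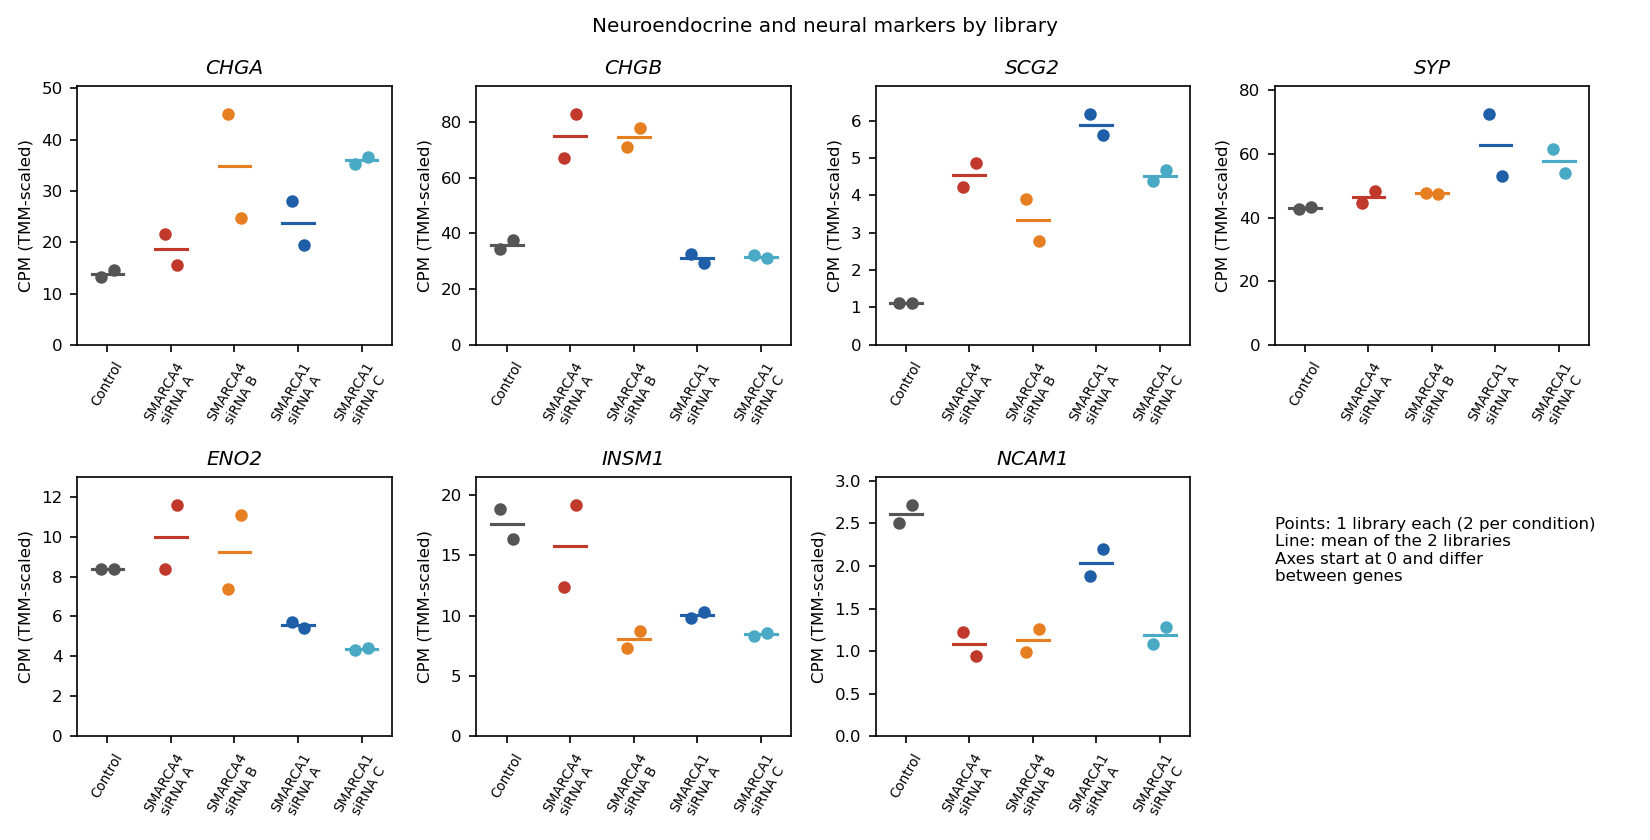
TMM-scaled CPM of each marker in the control and the 4 siRNA conditions, with 1 point per library, 2 per condition, and a line at their mean; the axes start at 0 and differ between genes. *CHGB* is high with both *SMARCA4* siRNAs, *SCG2* is above its controls in all 8 knockdown libraries, and *ENO2* is low with both *SMARCA1* siRNAs.

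*SYP* encodes synaptophysin, a membrane protein of synaptic vesicles and a standard neuroendocrine marker. Its libraries were at 42.7 and 43.4 CPM in the controls, 44.4 and 48.3 CPM with *SMARCA4* siRNA A, 47.7 and 47.4 CPM with siRNA B, 72.6 and 53.2 CPM with *SMARCA1* siRNA A and 61.6 and 54.1 CPM with siRNA C. Both knockdowns were above the controls in every library, by a small margin with *SMARCA4* siRNAs and by more with *SMARCA1* siRNAs. *SYP* rose 1.40-fold in *SMARCA1* knockdown (log2 0.49 ± 0.13, adjusted p = 0.0118, edgeR), a call that ended without control replicate 1 (adjusted p = 0.0791, edgeR) or 2 (0.0692). In *SMARCA4* knockdown the log2 difference was 0.13 ± 0.13 (adjusted p = 0.452, edgeR; 95% interval −0.16 to 0.41).

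*ENO2* encodes the neuron-specific form of the glycolytic enzyme enolase. It was at 8.36 and 8.40 CPM in the controls, 8.38 and 11.6 CPM with *SMARCA4* siRNA A, 7.39 and 11.1 CPM with siRNA B, 5.71 and 5.40 CPM with *SMARCA1* siRNA A and 4.32 and 4.44 CPM with siRNA C. The *SMARCA4* libraries lay on both sides of the controls, and all 4 *SMARCA1* libraries lay below them. *ENO2* was at 58.9% of control in *SMARCA1* knockdown (log2 −0.76 ± 0.19, adjusted p = 0.00763, edgeR), and the call ended without control replicate 1 (adjusted p = 0.0648, edgeR) or 2 (0.0613). In *SMARCA4* knockdown the log2 difference was 0.20 ± 0.19 (adjusted p = 0.422, edgeR; 95% interval −0.22 to 0.61). The other enolase genes behaved otherwise: *ENO1*, the ubiquitous form, fell by 0.49 on the log2 scale in *SMARCA4* knockdown (adjusted p = 0.0255, edgeR) and had −0.09 in *SMARCA1* knockdown (adjusted p = 0.66), while *ENO3*, the muscle form, passed in neither (−0.44 and 0.02; adjusted p = 0.105 and 0.932). The *ENO1* call ended without either control library (adjusted p = 0.166 and 0.116, edgeR), without *SMARCA4* siRNA A replicate 2 (0.0716) and without siRNA B replicate 2 (0.0843).

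*INSM1* was at 18.8 and 16.4 CPM in the controls, 12.4 and 19.1 CPM with *SMARCA4* siRNA A, 7.36 and 8.74 CPM with siRNA B, 9.80 and 10.3 CPM with *SMARCA1* siRNA A and 8.32 and 8.57 CPM with siRNA C. The *SMARCA1* libraries and both siRNA B libraries were below the controls, whereas 1 siRNA A library exceeded both controls. *INSM1* fell by 0.93 ± 0.17 on the log2 scale in *SMARCA1* knockdown, to 52.4% of control (adjusted p = 0.00149, edgeR). It fell by 0.64 ± 0.17 in *SMARCA4* knockdown (adjusted p = 0.0104, edgeR), which did not pass without control replicate 1 (adjusted p = 0.138, edgeR).

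*NCAM1* encodes the neural cell adhesion molecule CD56, also found on natural killer cells. It was at 2.51 and 2.71 CPM in the controls, 1.22 and 0.943 CPM with *SMARCA4* siRNA A, 0.989 and 1.26 CPM with siRNA B, 1.88 and 2.19 CPM with *SMARCA1* siRNA A and 1.09 and 1.29 CPM with siRNA C. All 8 knockdown libraries were below both controls, with *SMARCA1* siRNA A nearest to them. *NCAM1* was at 42.2% of control in *SMARCA4* knockdown (log2 −1.24 ± 0.21, adjusted p = 0.0010, edgeR) and at 59.6% in *SMARCA1* knockdown (log2 −0.75 ± 0.21, adjusted p = 0.0136, edgeR). The *SMARCA1* call ended without control replicate 1 (adjusted p = 0.0685, edgeR), control replicate 2 (0.105) or *SMARCA1* siRNA C replicate 1 (0.0522).

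In total, 5 of the 7 markers were called in *SMARCA4* knockdown (adjusted p below 0.05), where 45.1% of all tested genes were called. Of these, 3 were higher (*CHGA*, *CHGB*, *SCG2*; 22.8% of all genes) and 2 lower (*INSM1*, *NCAM1*; 22.3%). In *SMARCA1* knockdown, 6 of 7 were called, against 46.8% of all genes. Of these, 3 were higher (*CHGA*, *SCG2*, *SYP*; 23.8%) and 3 lower (*ENO2*, *INSM1*, *NCAM1*; 23.0%). These comparisons share the 2 control libraries. With so many genes called in general, a call on its own does not set a marker apart, and the markers' directions were mixed. With 1 of the 2 control libraries left out, some of these marker calls ended, as given above, and fewer of all tested genes were called as well.

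**Figure D3:**
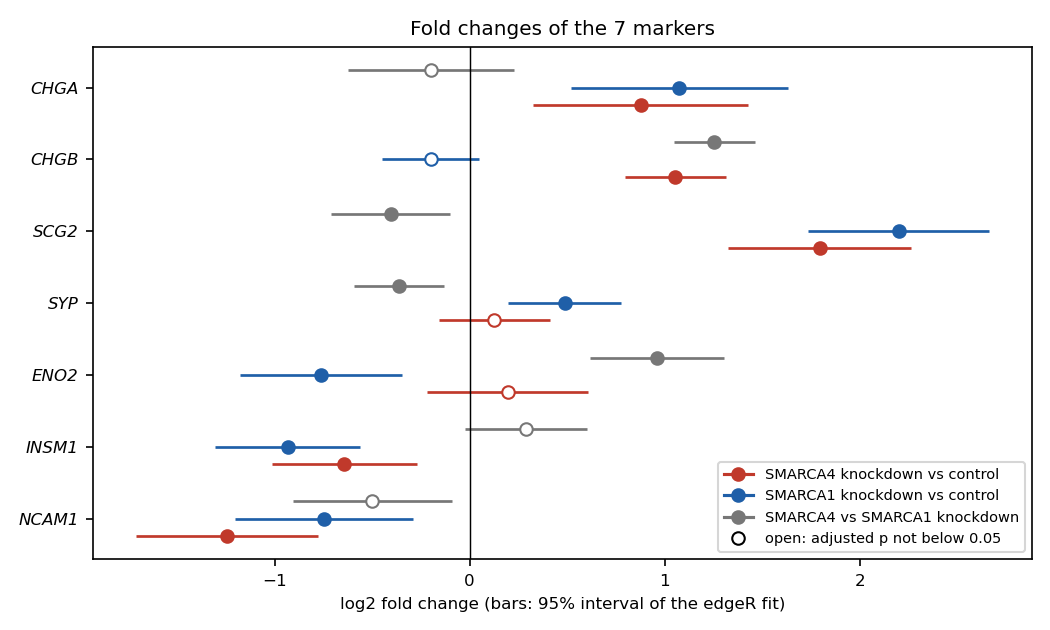
Log2 fold change of each marker for *SMARCA4* knockdown against control (red), *SMARCA1* knockdown against control (blue) and *SMARCA4* against *SMARCA1* knockdown (grey); bars are 95% intervals of the edgeR fit and open circles did not pass an adjusted p of 0.05. *SCG2* lies farthest to the right (1.79 and 2.20) and *NCAM1* in *SMARCA4* knockdown farthest to the left (−1.24).

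By siRNA, 3 markers were called with *SMARCA4* siRNA A (*CHGB*, *SCG2*, *NCAM1*; 33.2% of all genes were called) and 5 with siRNA B (*CHGA* and *INSM1* in addition; 45.0%). With *SMARCA1* siRNA A, 3 were called (*SCG2*, *SYP*, *INSM1*; 34.8%), and 6 with siRNA C (*CHGA*, *ENO2* and *NCAM1* in addition; 45.3%). *SCG2* was the only marker called with all 4 siRNAs, at log2 fold changes of 2.02, 1.57, 2.39 and 2.01 for *SMARCA4* siRNA A, siRNA B, *SMARCA1* siRNA A and siRNA C. *CHGA* had log2 0.43 (adjusted p = 0.267, edgeR) with *SMARCA4* siRNA A and 1.33 (adjusted p = 0.00343) with siRNA B. *INSM1* had log2 −0.16 (adjusted p = 0.573, edgeR) with *SMARCA4* siRNA A. With *SMARCA1* siRNA A, *CHGA* had log2 0.78 (adjusted p = 0.0534, edgeR) and *NCAM1* −0.36 (adjusted p = 0.263). The test of the siRNAs against each other gave 1 marker of 7 for *SMARCA4*, where 6.20% of all genes were called: *INSM1* was lower with siRNA B than with siRNA A by log2 −0.97 ± 0.20 (adjusted p = 0.0234, edgeR). The interferon genes summed to 33278 and 16222 CPM in the siRNA A libraries against 44582 and 37108 CPM in the siRNA B libraries, and the siRNA A library with the lowest sum was the one in which *INSM1* exceeded both controls. The part of the interferon genes in this difference was not tested. For *SMARCA1*, edgeR called 0 markers between siRNA C and siRNA A (0.0118% of all genes), and 1, *NCAM1*, had an unadjusted p below 0.05 (log2 −0.77, adjusted p = 0.176).

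**Figure D4:**
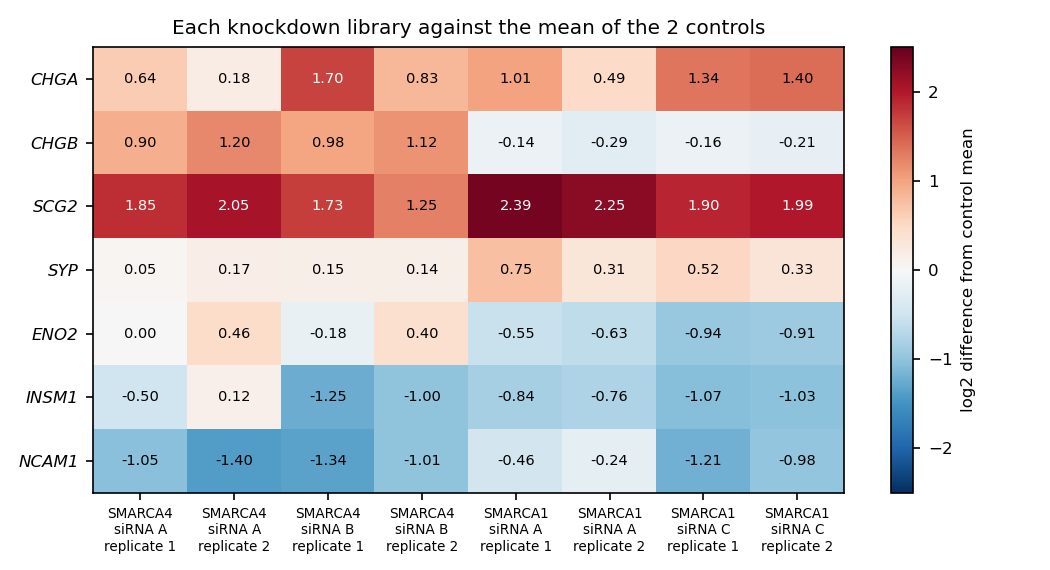
Log2 difference of each knockdown library from the mean of the 2 controls, with the value written in each cell (red higher, blue lower). *CHGB* separates the 4 *SMARCA4* libraries (0.90 to 1.20) from the 4 *SMARCA1* libraries (−0.29 to −0.14), and *INSM1* ranges from −1.25 to 0.12 within *SMARCA4* knockdown.

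The knockdowns were also compared with each other, since in this comparison all libraries had received a targeting siRNA and the controls do not enter the difference. *CHGB* and *ENO2* were higher in *SMARCA4* than in *SMARCA1* knockdown, and *SCG2* and *SYP* were lower. These 4 of 7 markers compare with 35.4% of all genes called, 16.3% higher and 19.1% lower, and 2 markers were called without *SMARCA4* siRNA B replicate 2 or without *SMARCA1* siRNA C replicate 1. *CHGB* was 2.39-fold higher (log2 1.26 ± 0.093, adjusted p = 3.92e-05, edgeR) and *ENO2* 1.94-fold higher (log2 0.96 ± 0.15, adjusted p = 0.00134, edgeR), and for both genes the 4 libraries of each knockdown did not overlap. *SYP* had log2 −0.36 ± 0.10 (adjusted p = 0.0225, edgeR), also with no overlap, and *SCG2* −0.41 ± 0.14 (adjusted p = 0.0438, edgeR), with overlapping libraries. The *SCG2* difference lost its call with DESeq2 (adjusted p = 0.0875), with no filter on low counts (0.0781, edgeR), in a fit of the compared libraries alone (0.0639, edgeR) and when any 1 library other than *SMARCA4* siRNA B replicate 1 or *SMARCA1* siRNA A replicate 2 was left out (0.0598 to 0.165, edgeR). The *SYP* difference ended without *SMARCA4* siRNA A replicate 1 (adjusted p = 0.0798, edgeR), siRNA B replicate 1 (0.0701) or replicate 2 (0.0768), or *SMARCA1* siRNA C replicate 1 (0.111), and was −0.23 without *SMARCA1* siRNA A replicate 1, where it passed. *CHGA*, *INSM1* and *NCAM1* did not pass: their differences were −0.20 (adjusted p = 0.446, edgeR; 95% interval −0.62 to 0.23), 0.29 (adjusted p = 0.137; −0.025 to 0.60) and −0.50 (adjusted p = 0.0577; −0.91 to −0.090). Without *SMARCA4* siRNA A replicate 1, *INSM1* passed (log2 0.44, adjusted p = 0.0188, edgeR). Luminal markers summed to 12880 to 14810 CPM in *SMARCA4* and 10932 to 11925 CPM in *SMARCA1* knockdown, with 9 of 14 called higher and 0 lower in *SMARCA4* knockdown. Of the 29 interferon genes, 3 were called higher and 6 lower. The part of either list in these differences was not tested.

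Related genes were counted in lists, whose calls are read against the shares of all tested genes called higher (22.8% and 23.8%) and lower (22.3% and 23.0%) in *SMARCA4* and *SMARCA1* knockdown. The genes named from these lists as having risen or fallen passed edgeR's test for the knockdown as a whole and for each siRNA separately. A named gene may also have been called in the other knockdown as a whole, and that value is then given beside it. Of 12 tested genes for granins and dense-core vesicle cargo (15 listed, the markers not among them), 6 were higher and 1 lower in *SMARCA4* knockdown, and 2 higher and 0 lower in *SMARCA1* knockdown. Between the knockdowns, 7 were higher with *SMARCA4* siRNAs and 2 lower, beside 16.3% and 19.1% of all tested genes. The lists described below gave 7 and 2 (synaptic, 17 tested), 4 and 3 (transcription factors, 14) and 0 and 5 (repressors, 17). Adhesion and surface genes (13 tested) gave 4 higher and 0 lower there, and pan-neural genes (19) 4 and 5. The dense-core list had a median log2 fold change of 0.36 in *SMARCA4* and 0.02 in *SMARCA1* knockdown, beside 0.0022 and −0.0035 over all tested genes. *CPE*, the carboxypeptidase that trims prohormones in the granule, was at 24.8 and 19.7 CPM in the controls and at 36.2 to 51.9 CPM in *SMARCA4* knockdown, where it rose by log2 0.87 ± 0.15 (adjusted p = 0.00119, edgeR). In *SMARCA1* knockdown *CPE* was at 18.8 to 26.4 CPM, overlapping the controls (log2 −0.02, adjusted p = 0.915, edgeR).

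Genes of synaptic vesicles and their release (17 tested of 21) were called in both directions, 2 higher and 3 lower in *SMARCA4* knockdown and 3 higher and 7 lower in *SMARCA1* knockdown. *SYN1*, a phosphoprotein that tethers vesicles, rose by log2 1.42 ± 0.26 in *SMARCA4* knockdown, and *RAB3A*, a small GTPase of vesicle release, fell by 0.82 ± 0.15. Both were called in the same directions in *SMARCA1* knockdown as a whole (log2 0.89 and −0.67, adjusted p = 0.0179 and 0.00413, edgeR). These *SMARCA1* calls ended without control replicate 2. In *SMARCA1* knockdown, *SNAP25*, a SNARE protein of vesicle fusion, fell by 1.36 ± 0.20 on the log2 scale, *RAB3C* by 0.94 ± 0.20 and *RAB3B* by 0.80 ± 0.15, while *SV2C*, a vesicle glycoprotein, rose by log2 1.20 ± 0.31 and *STX1A*, a syntaxin, by 0.42 ± 0.12. *SYP* thus rose in a condition in which 7 of 17 other synaptic genes fell. The calls of *SV2C* (adjusted p = 0.0758 and 0.0584, edgeR) and *STX1A* (0.124 and 0.0666) ended without control replicate 1 or 2, and *STX1A* also lost its call without *SMARCA1* siRNA C replicate 2 (0.0594).

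Of 23 neuroendocrine transcription factors and regulators other than *INSM1*, 14 were tested and 4 had no count in any library. In *SMARCA4* knockdown 3 were higher and 1 lower, and in *SMARCA1* knockdown 4 were higher and 3 lower. *NKX2-2*, a homeobox factor of neuroendocrine cells, was at 7.36 and 6.69 CPM in the controls, 14.0 to 24.3 CPM in *SMARCA4* knockdown and 18.2 to 21.6 CPM in *SMARCA1* knockdown. All 8 knockdown libraries were above both controls, with log2 fold changes of 1.53 ± 0.16 and 1.49 ± 0.16 (adjusted p = 6.31e-05 and 0.000101, edgeR). *INSM2*, a paralog of *INSM1*, rose by log2 1.45 ± 0.27 in *SMARCA4* knockdown (adjusted p = 0.00198, edgeR), the opposite direction to *INSM1*. *PEG10*, a retrotransposon-derived gene, fell by 1.60 ± 0.20 in *SMARCA1* knockdown, from 484 and 478 CPM to between 102 and 185 CPM, and *SRRM4*, a splicing factor of neural exons, fell by 0.93 ± 0.21 (without control replicate 2, adjusted p = 0.0898, edgeR).

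*REST* did not pass the test in either knockdown. It was at 44.5 and 38.7 CPM in the controls, at 33.9 to 48.0 CPM in *SMARCA4* knockdown and at 26.6 to 44.6 CPM in *SMARCA1* knockdown, with log2 differences of 0.01 ± 0.18 (adjusted p = 0.960, edgeR) and −0.17 ± 0.18 (adjusted p = 0.451). Without *SMARCA1* siRNA A replicate 2 the latter became −0.35 (adjusted p = 0.0177, edgeR). The repressors and Notch pathway genes listed with it (17 tested of 17) gave 3 higher and 5 lower calls in *SMARCA4* knockdown and 3 higher and 2 lower in *SMARCA1* knockdown. *HES1*, a Notch target that represses neural genes, rose by log2 1.68 ± 0.27 and 1.76 ± 0.28. In *SMARCA1* knockdown *HEY1*, a related Notch target, rose by log2 1.52 ± 0.26 and the receptor *NOTCH1* by log2 1.10 ± 0.20. *HEY1* and *NOTCH1* were also called higher in *SMARCA4* knockdown as a whole (log2 1.06 and 0.78, adjusted p = 0.00852 and 0.0109, edgeR). These *SMARCA4* calls ended without control replicate 1, and that of *HEY1* also without control replicate 2 (log2 1.09). Neither gene passed between the knockdowns (adjusted p = 0.0779 and 0.128, edgeR). *HDAC2*, a histone deacetylase of REST corepressor complexes, and *EZH2*, the Polycomb methyltransferase, fell by 0.74 ± 0.084 and 0.68 ± 0.099 in *SMARCA4* knockdown. *HDAC2* was also called lower in *SMARCA1* knockdown as a whole (log2 −0.25, adjusted p = 0.0350, edgeR). That call was lost in a fit of the compared libraries alone (adjusted p = 0.0576, edgeR) and with no filter on low counts (0.138, edgeR). It also ended without control replicate 1 or 2 (log2 −0.18 and −0.27) or any *SMARCA4* knockdown library (−0.22 in each). Leaving out *SMARCA1* siRNA C replicate 1 or 2 ended it too (−0.25 and −0.24).

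Neural adhesion and surface genes (13 tested of 17) gave 4 higher and 2 lower calls in *SMARCA4* knockdown and 3 higher and 5 lower in *SMARCA1* knockdown. In contrast to *NCAM1*, *NFASC*, an adhesion molecule of axons, rose by log2 2.01 ± 0.13 in *SMARCA4* and 1.68 ± 0.13 in *SMARCA1* knockdown, and the Notch ligand *DLL1* rose by log2 1.04 ± 0.16 and 1.31 ± 0.16. The somatostatin receptor *SSTR5* rose by log2 1.71 ± 0.23 in *SMARCA4* knockdown, from 5.39 and 6.20 CPM to between 13.1 and 27.9 CPM. It was also called higher in *SMARCA1* knockdown as a whole (log2 0.85, adjusted p = 0.0110, edgeR), a call that ended without control replicate 1. The synaptic adhesion gene *NLGN1* fell by 1.10 ± 0.28 in *SMARCA1* knockdown, and without control replicate 2 this call ended (log2 −0.88). *NLGN1* was also called lower in *SMARCA4* knockdown as a whole (log2 −0.92, adjusted p = 0.0220, edgeR), a call that ended without either control library. Leaving out *SMARCA4* siRNA A replicate 1 (log2 −0.83) or siRNA B replicate 1 (−0.80) ended it too.

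Pan-neural genes (19 tested of 28) gave 4 higher and 9 lower calls in *SMARCA4* knockdown and 3 higher and 6 lower in *SMARCA1* knockdown, with medians of −0.22 and −0.21. *MAP2*, a dendritic microtubule protein, rose by log2 1.08 ± 0.19 and 1.02 ± 0.19, and the light neurofilament *NEFL* fell by 1.15 ± 0.18 and 1.63 ± 0.18. Neurofilament genes split. In *SMARCA1* knockdown the heavy chain *NEFH* rose by log2 1.73 ± 0.24 and the medium chain *NEFM* fell by 1.23 ± 0.18. The axonal microtubule protein gene *MAPT* fell there too (1.53 ± 0.18). These genes were called in the same directions in *SMARCA4* knockdown as a whole. Their log2 fold changes there were 0.85, −0.85 and −0.51 (adjusted p = 0.0151, 0.00369 and 0.0369, edgeR), and the calls ended without control replicate 1. The *MAPT* call also ended without control replicate 2 (log2 −0.54), *SMARCA4* siRNA A replicate 1 (−0.37) or siRNA B replicate 1 (−0.37). Leaving out *SMARCA1* siRNA C replicate 1 or 2 ended it too (−0.50 and −0.51). The ubiquitin hydrolase *UCHL1*, another neuroendocrine marker, and the stathmin *STMN3* fell by 1.00 ± 0.13 and 0.55 ± 0.099 in *SMARCA4* knockdown. *GPRIN1*, a factor of neurite outgrowth, rose by log2 0.36 ± 0.099 in *SMARCA1* knockdown, a call that ended without control replicate 1 (log2 0.32). *GPRIN1* was also called higher in *SMARCA4* knockdown as a whole (log2 0.43, adjusted p = 0.00611, edgeR), a call that likewise ended without control replicate 1.

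**Figure D5:**
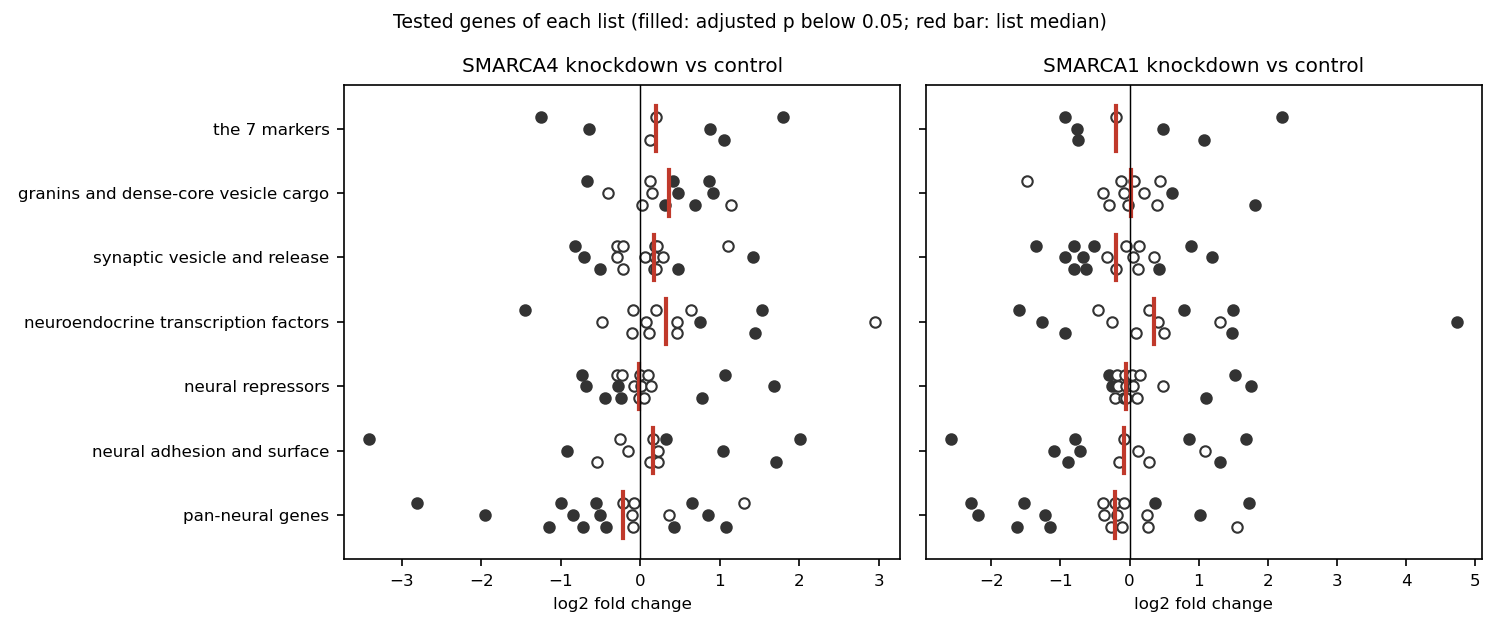
Log2 fold change of every tested gene of the 7 markers and 6 related gene lists, for *SMARCA4* (left) and *SMARCA1* knockdown (right) against control; filled circles passed an adjusted p of 0.05, open circles did not, and red bars are list medians. Each list holds genes on both sides of 0, and the median of the granin and dense-core list is 0.36 on the left and 0.02 on the right.

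The genes most like each marker across the 8 knockdown libraries were found among 13646 genes by the smallest root mean square (RMS) difference in log2 CPM relative to control, as a description over libraries that share the 2 controls. *NKPD1* (0.128) and *NPY* (0.144), the gene of the granule peptide neuropeptide Y, were nearest to *CHGB*. *STYXL1* (0.0672) and *FKBP8* (0.0854) were nearest to *SYP*, and *NDRG3* (0.0913) and *LINC00957* (0.145) to *ENO2*. *KAZALD1* (0.170) and *LITAF* (0.180) were nearest to *CHGA*, *EEF1AKMT2* (0.141) and *VN1R1* (0.145) to *INSM1*, and *RBM15-AS1* (0.181) and *NEIL3* (0.184) to *NCAM1*. *SCG2* had the most distant neighbours, *NXPH3* (0.365) and the carboxypeptidase M gene (0.388). Among the markers themselves, *INSM1* and *NCAM1* were closest (0.621) and *SCG2* and *NCAM1* farthest apart (2.91), so no marker was as near to another marker as to its nearest genes elsewhere.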

How the data were processed

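RNA-seq of 10 VCaP libraries was used, grouped by the sample labels. Per the labels and the study's methods, the authors made directional libraries from polyadenylated RNA, aligned paired-end reads to GRCh38 (hg38) and counted them per gene on a GENCODE annotation (release not given in the sources used here) to which *IGF1R-AS1* was added. The submitters' processing notes name HISAT2 2.1.0 and featureCounts 1.5.2. The authors deposited raw counts without normalization for 59386 genes.

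Genes were filtered with filterByExpr (minimum count 10, minimum total 15), scaled by TMM and fitted with edgeR 4.0.16 (quasi-likelihood test, R 4.3.3) as 5 groups over all 10 libraries. For each knockdown, the average of both siRNA groups was set against control. P-values were adjusted by Benjamini-Hochberg over 16899 genes, with calls at an adjusted p below 0.05. CPM is TMM-scaled, and TPM was computed from the counts and the exon lengths in the files. Replicates of every group were further apart than sampling noise (chi-square per gene 3.57 to 54.5). The method was tested on simulated data. Promoter windows came from RefSeq.

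The markers and gene lists were chosen with earlier results of these data known. All 7 markers are named. From each other list the text names, per knockdown and direction, at most 3 genes with the largest log2 fold change at a mean of 1 CPM or more, called in the knockdown and with both of its siRNAs. *REST* and the enolases are always named. Most single markers of other cell types were named after their values were seen. Some genes of these lists are not reported here. The alternatives were DESeq2 1.42.0, RLE scaling, other filters, the replicate block, only the compared libraries, and leaving out each library.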

Additional observations from a re-analysis of the deposited data

Results flagged for a closer look

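The effects of the 2 knockdowns differed for 4 markers by edgeR's quasi-likelihood test of the difference, beside 35.4% of all tested genes. *CHGB* was higher in *SMARCA4* than in *SMARCA1* knockdown by log2 1.26 and *ENO2* by log2 0.96. *SCG2* differed by log2 −0.41 and *SYP* by log2 −0.36, both lower in *SMARCA4* knockdown. The *SCG2* call was lost with DESeq2 (adjusted p = 0.0875), with no filter on low counts (0.0781, edgeR), with only the compared libraries (0.0639, edgeR) and when any 1 library other than *SMARCA4* siRNA B replicate 1 or *SMARCA1* siRNA A replicate 2 was left out (0.0598 to 0.165, edgeR). The *SYP* call was lost without *SMARCA4* siRNA A replicate 1, siRNA B replicate 1 or 2, or *SMARCA1* siRNA C replicate 1 (adjusted p from 0.0701 to 0.111, edgeR). Between the siRNAs of 1 target, *INSM1* was lower with *SMARCA4* siRNA B than with siRNA A by log2 −0.97.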

How the results depend on the processing

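Every call of a marker kept its direction under all alternatives. In *SMARCA4* knockdown, 109 of 112 recomputed values stayed on the same side of the threshold and 3 lost the call. In *SMARCA1* knockdown 104 of 112 stayed and 8 lost it, and between the knockdowns 95 stayed, 15 lost it and 2 gained it. Leaving out 1 library moved the markers called to between 3 and 5 in *SMARCA4* knockdown (5 in full), 2 and 6 in *SMARCA1* knockdown (6) and 2 and 4 between them (4), and the genes called to between 4413 and 9183 (7616), 4430 and 9557 (7911) and 3683 and 8072 (5982). The lowest counts against control came without control replicate 1. Without control replicate 2, 4913 and 5094 genes were called. Both fits have fewer samples, and the lone control library is assumed to vary like the other groups. Those between the knockdowns came without *SMARCA1* siRNA C replicate 1, and without *SMARCA4* siRNA B replicate 2 (3839 genes, 2 markers). DESeq2 called 5, 6 and 3 markers, and *NCAM1* passed between the knockdowns at a filter of 1 CPM (adjusted p = 0.0486, edgeR). Same-numbered replicates were not shown to be paired: correlations of their deviations ran from −0.103 to 0.362, with 3 of 10 over 0.1. With a replicate block, 7788, 8011 and 6247 genes and 5, 6 and 4 markers were called. *SCG2* and *NCAM1*, with 27 to 73 counts in a control library, are the markers most limited by depth.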

Other observations

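Some neural genes were too low in the controls or over the libraries to be named by the rule, and were picked after their values were seen. *CDH2*, the gene of N-cadherin, had 46 and 40 counts in the controls, 2 to 9 in the *SMARCA4* and 5 to 13 in the *SMARCA1* knockdown libraries, with no overlap. It fell by 3.41 ± 0.32 and 2.58 ± 0.30 on the log2 scale (adjusted p = 3.48e-05 and 0.000148, edgeR), farther than *NCAM1* in each knockdown. *NTS*, the gene of the peptide neurotensin, had 25 and 23 counts in the controls and 3 to 9 in the knockdown libraries, and fell by 2.80 ± 0.45 and 2.30 ± 0.43 (adjusted p = 0.000718 and 0.00181, edgeR). *PROX1*, a homeobox gene of neural progenitors, had 0 and 1 counts in the controls, 2 to 9 in *SMARCA4* and 9 to 35 in *SMARCA1* knockdown. It passed in *SMARCA1* knockdown (adjusted p = 0.00419, edgeR) and not in *SMARCA4* knockdown (adjusted p = 0.0815), where it did pass with no filter on low counts (adjusted p = 0.0162, edgeR). No fold is given against so few counts.

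Among the 14 luminal markers, 6 were called higher and 2 lower in *SMARCA4* knockdown, beside 22.8% and 22.3% of all tested genes. In *SMARCA1* knockdown 2 were higher and 6 lower, beside 23.8% and 23.0%. The luminal keratin genes *KRT8* and *KRT18* rose by log2 1.66 ± 0.22 and 0.83 ± 0.16 in *SMARCA4* and by 1.99 ± 0.22 and 0.95 ± 0.16 in *SMARCA1* knockdown. *FOLH1*, which encodes prostate-specific membrane antigen, fell by 0.86 ± 0.13 and 1.78 ± 0.13. *ACP3*, the gene of prostatic acid phosphatase, fell from a control mean of 1356 CPM to between 367 and 683 CPM in *SMARCA1* knockdown (adjusted p = 0.000324, edgeR) and had a log2 difference of 0.05 in *SMARCA4* knockdown (adjusted p = 0.867, edgeR).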
